A study of Bos taurus with 6 samples.

Results

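Cytokines and chemokines are the secreted proteins by which mammary epithelium signals infection, and 9 of their genes are described here in bovine mammary epithelial cells that received a miR-199a-3p mimic. The 9 were fixed as a list of Ensembl gene IDs with their symbols: IL6, CXCL8, IL1B, IL1A, TNF, CCL2, CCL5, CCL20 and CXCL10. Of these IDs, 8 had a row among the 28522 rows of the count tables, and CCL5 (ENSBTAG00000007191) was not analysed here. The tables hold IDs without symbols, so each name rests on the list and was not checked against a second source.

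The cells were cultured bovine mammary epithelial cells, named MAC-T in the growth protocol, an immortalised line. The test group received miR-199a-3p mimic and the control group negative control (NC) mimic, both at 50 nM, and cells were harvested 48 h later. A mimic is a synthetic RNA duplex that supplies a microRNA's activity, so every library came from transfected cells and none from untouched ones. No inflammatory stimulus is named for either group. Each group held 3 libraries, called replicates 1, 2 and 3. The labels speak of a triplicate experiment without saying whether the cultures were separate. The p-values set the difference between the groups only against the spread among these samples, and that spread may be technical. Markers of epithelium and of other cell types were not analysed here, because no ID could be paired with their symbols, and the cell type rests on the labels.

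In the mammary gland, bacterial products sensed by Toll-like receptors activate NF-κB and MAP kinase signalling in epithelial cells, which switches on cytokine genes. IL-1α, IL-1β and TNF are early alarm cytokines that amplify this response, IL-6 drives the acute phase reaction, and chemokines attract leucocytes into the gland and milk. A microRNA lowers the output of mRNAs that pair with its seed, so a change in a cytokine mRNA after a mimic can be direct or run through other genes, and the counts here do not separate these.

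Library totals ranged from 16303257 to 23720655 counts. Levels below are CPM, the count of a row relative to the library's counts in tested rows after TMM (trimmed mean of M-values) normalisation, and 1 count was worth 0.0412 to 0.0604 CPM. NC replicate 2 stood apart from the other libraries. When limma weighted the libraries by how well they followed their group, it received 0.246, against 0.832 to 1.78 for the other 5. The median coefficient of variation over the 13949 rows tested was 10.2% in NC and 6.00% in mimic libraries. Comparisons of the groups below are therefore given with and without NC replicate 2, and why this library differed was not tested.

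Of the 8 genes, IL6, CXCL8 and CCL20 had enough counts for a comparison, and IL1B, IL1A, TNF, CCL2 and CXCL10 were too low to judge. None of the 3 genes compared passed the test with all 6 libraries (edgeR quasi-likelihood, adjusted p under 0.05), against 11.8% of all rows tested. At an unadjusted p under 0.05 edgeR gave 1 of the 3, CCL20, against 27.6% of all rows tested. Limma-voom called 1 of the 3 after adjustment, also CCL20, against 11.5% of all rows. Both results are descriptions, since CCL20 passed the count filter mainly through the mimic libraries, where it was high. DESeq2 gave an adjusted p to only 1 of the 3, CXCL8, which it did not call, against 12.9% called of the rows given one. Without NC replicate 2, IL6 and CXCL8 rose with the mimic (edgeR adjusted p under 0.05), a direction in which 13.4% of all rows tested were called in that fit. CCL20 was called there too, but of the libraries left only those of the mimic, where it was high, carried it past the count filter, so its call is not counted with the others. For IL6 and CXCL8, NC replicates 1 and 3 were lower than every mimic library and NC replicate 2 was higher than every one. This order occurred in 534 of the rows tested (3.83%). CCL20 did not show this order, as its NC replicate 2, at 0.533 CPM, lay below every mimic library.

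**Figure D1:**
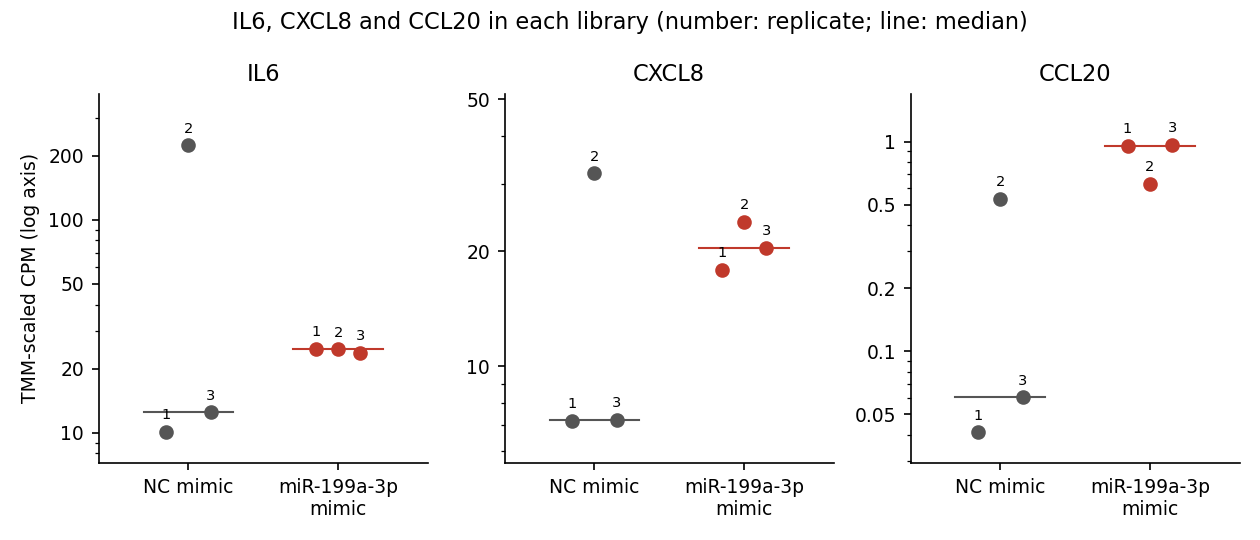
Level of IL6, CXCL8 and CCL20 in TMM-scaled CPM (log axis) in each library. Points are libraries labelled by replicate number and lines are group medians; NC replicate 2 lies above all mimic libraries for IL6 and CXCL8, and just below them for CCL20.

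IL6 (ENSBTAG00000014921) encodes interleukin-6, the cytokine that induces acute phase proteins in liver and supports B cell and T cell responses. Its NC libraries held 10.1, 223.9 and 12.5 CPM in replicates 1, 2 and 3, from 245, 5042 and 207 counts. Its mimic libraries held 24.8, 24.7 and 23.8 CPM, from 442, 471 and 444 counts. The 3 mimic libraries were nearly level, with NC replicates 1 and 3 below them and NC replicate 2 far above, so the groups overlapped. NC replicate 2 alone held 91.8% of the IL6 counts of the NC group.

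The mean of IL6 was 82.2 ± 122.8 CPM in NC and 24.4 ± 0.572 CPM in mimic libraries (SD, n = 3). Counting error alone would give an SD of about 1.15 CPM in the mimic libraries, so their spread was no wider than sampling of reads, while the NC spread was far wider than the 2.00 CPM from counting. The log2 fold change, mimic over NC, was -1.76 (standard error 0.99, 95% interval -4.00 to 0.49, edgeR adjusted p = 0.287). The interval spans a fall to 0.0626 of the NC level and a rise to 1.40-fold of it.

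Without NC replicate 2 the direction of IL6 turned. The log2 fold change was then 1.12 (standard error 0.10, 95% interval 0.91 to 1.34, edgeR adjusted p = 2.79e-08), a rise of 2.18-fold in the mimic. This estimate lies outside the interval from all 6 libraries, whose upper end was 0.49 on the same log2 scale. The sign of the IL6 difference was thus set by 1 control library. With limma-voom and weights for library quality, which keep NC replicate 2 at low weight, the log2 fold change was 0.61 (95% interval -0.36 to 1.58, adjusted p = 0.379).

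Among all rows tested, IL6 was one of the most extreme in NC replicate 2. By the ratio of NC replicate 2 to the mean of NC replicates 1 and 3 (CPM + 0.5) it ranked 4 of 13949, at 19.0, and only 35 rows reached a ratio of 4. Its coefficient of variation within NC, 149%, also ranked 4. The order seen for IL6, with NC replicate 2 above every mimic library and every mimic library above NC replicates 1 and 3, occurred in 534 rows (3.83%), CXCL8 among them.

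CXCL8 (ENSBTAG00000019716) encodes interleukin-8, the chemokine that draws neutrophils into the infected udder. Its NC libraries held 7.21, 32.0 and 7.25 CPM in replicates 1, 2 and 3, from 175, 721 and 120 counts. Its mimic libraries held 17.9, 23.9 and 20.4 CPM, from 318, 456 and 381 counts. NC replicates 1 and 3 agreed within counting error (ratio 1.01, exact 95% interval 0.790 to 1.28, which covers counting error only) and lay below all mimic libraries. NC replicate 2 lay above all of them, so the groups overlapped here too.

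The CXCL8 mean was 15.5 ± 14.3 CPM in NC and 20.7 ± 3.03 CPM in mimic libraries (SD, n = 3). On the log2 scale the mimic differed from NC by 0.41 (standard error 0.50, 95% interval -0.73 to 1.55, edgeR adjusted p = 0.638), so anything from 0.603-fold to 2.92-fold was compatible with the 6 libraries. Without NC replicate 2 this difference was 1.52 (standard error 0.13, or 2.86-fold, edgeR adjusted p = 6.52e-09). As for IL6, that standard error and p-value leave out the spread that NC replicate 2 brought. Weighting the libraries by quality gave 1.27 (95% interval 0.72 to 1.82, limma-voom adjusted p = 0.00371). CXCL8 ranked 31 of 13949 by the ratio of NC replicate 2 to NC replicates 1 and 3.

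IL6 and CXCL8 did not move in proportion. NC replicate 2 exceeded the mean of NC replicates 1 and 3 by 19.8-fold for IL6 and by 4.43-fold for CXCL8. The mimic libraries exceeded the same pair by 2.16-fold for IL6 and 2.87-fold for CXCL8. As a ratio within each library, which needs no scaling between libraries, CXCL8 counts per IL6 count were 0.714, 0.143 and 0.580 in NC replicates 1, 2 and 3 and 0.719, 0.968 and 0.858 in mimic replicates 1, 2 and 3. NC replicate 2 had the lowest ratio of the 6. Mimic replicate 1 and NC replicate 1 were nearly equal, at 0.719 and 0.714, so the ratio did not clearly separate the groups. Ratios of other pairs of rows were not examined.

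**Figure D2:**
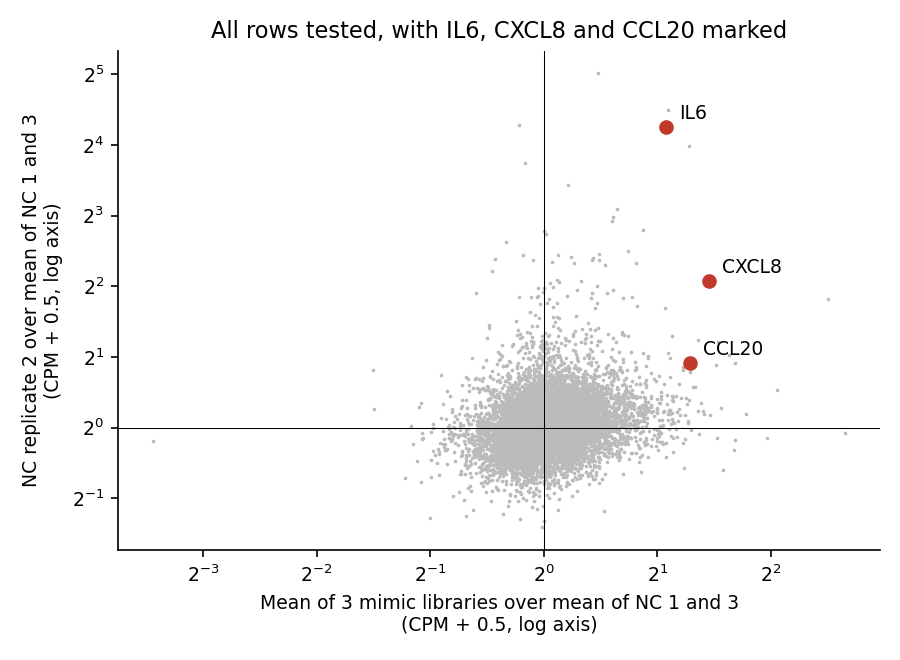
Each grey point is a row tested; the horizontal axis is the mean of the 3 mimic libraries and the vertical axis NC replicate 2, both over the mean of NC replicates 1 and 3 (CPM + 0.5, log axes). IL6, CXCL8 and CCL20 lie above 1 on both axes, with IL6 at 19.0 on the vertical axis; both axes share the 2 NC libraries in the denominator, and the added 0.5 damps CCL20.

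CCL20 (ENSBTAG00000021326) encodes the chemokine that attracts cells bearing CCR6, among them dendritic cells and subsets of lymphocytes. It was far scarcer, with 1, 12 and 1 counts in NC replicates 1, 2 and 3 and 17, 12 and 18 in mimic replicates 1, 2 and 3. In CPM this was 0.0412, 0.533 and 0.0604 in NC and 0.955, 0.629 and 0.964 in the mimic. CCL20 passed the count filter through the 3 mimic libraries and NC replicate 2. The groups did not overlap, which held with the mimic higher for 18.3% of all rows tested. NC replicate 2 and mimic replicate 2 held the same 12 counts and differed in scaling only, so the gap between the groups was within counting error (ratio 1.18, exact 95% interval 0.485 to 2.87).

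The CCL20 log2 fold change was 1.92 (standard error 0.66, or 3.77-fold, 95% interval 1.33-fold to 10.7-fold). It missed the threshold with edgeR (adjusted p = 0.0988). It passed with limma-voom, at a log2 fold change of 2.56 (adjusted p = 0.0422), and with quality weights, at 3.16 (limma-voom adjusted p = 0.00119), a fit that called 19.2% of all rows. These results are descriptions, since CCL20 was in these fits mainly through the mimic libraries, where it was high. Without NC replicate 2 the log2 fold change was 3.94 (standard error 0.71, edgeR adjusted p = 0.000241). This value is a description too, since with the NC libraries left at 1 count each the gene was in that fit only through the mimic libraries. The fit sets 47 mimic counts against 2 NC counts, and the ratio of these, 17.3, has an exact 95% counting interval of 4.53 to 146.9. Relative to NC replicate 2 alone, the mimic libraries were 1.59-fold higher, with a counting interval of 0.830 to 3.29.

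Across settings, the sign of CCL20 and CXCL8 was positive in every fit that gave them a value, whether by scaling, filter, tool or omission of a library, although the CXCL8 value was only 0.0504 without NC replicate 1 and 0.0803 without NC replicate 3. IL6 was negative in all but the fit without NC replicate 2 and the fit with quality weights.

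**Figure D3:**
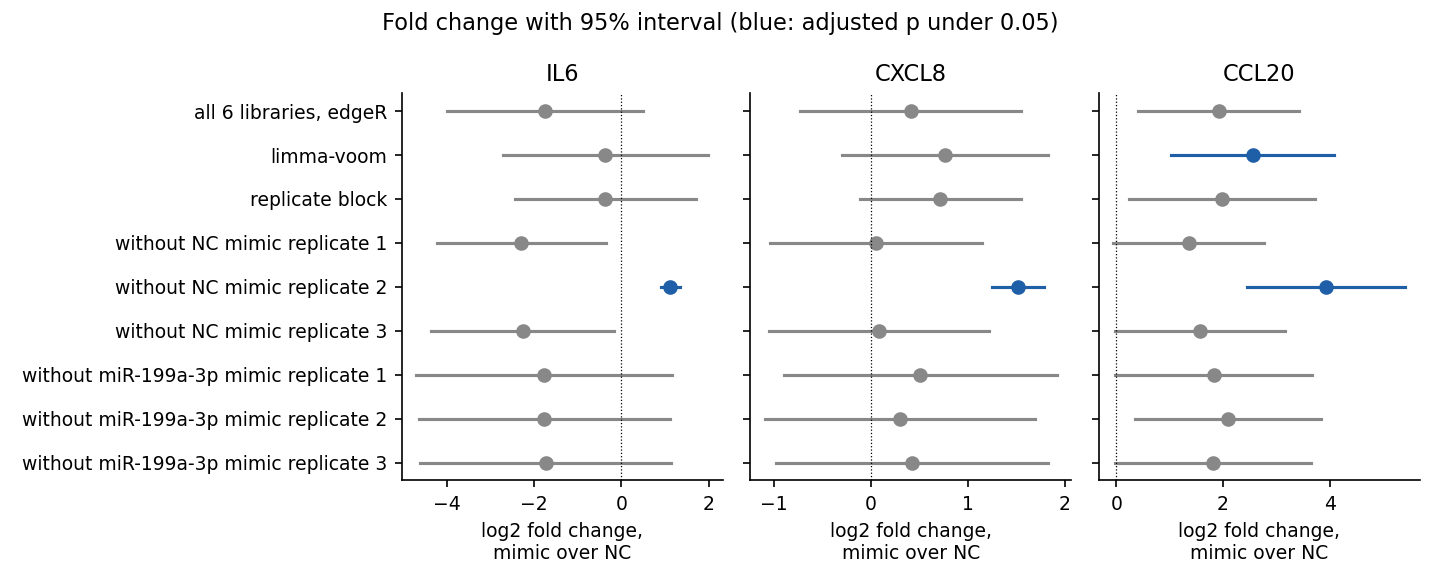
Log2 fold change, mimic over NC, of IL6, CXCL8 and CCL20 with all libraries (edgeR), with limma-voom, with the replicate number as a block and with each library left out; bars are 95% intervals and blue marks an adjusted p under 0.05. For all 3 genes the fit without NC replicate 2 gives a positive value, and for IL6 and CXCL8 its interval is the narrowest.

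The interleukin-1 genes were at the edge of detection. IL1B (ENSBTAG00000001321) encodes interleukin-1β, which is made as a precursor and cleaved before release, and held 1, 1 and 2 counts in NC and 2, 10 and 3 counts in mimic libraries. Of the 15 mimic counts, 10 came from mimic replicate 2. The pooled ratio of mimic over NC was 4.28 with an exact 95% counting interval of 1.36 to 17.7, without mimic replicate 2 it was 2.17 (0.468 to 10.9), and without NC replicate 2 it was 3.68 (1.04 to 19.8). These intervals leave out the spread between libraries. The count filter removed IL1B, and in the fit without a filter its edgeR adjusted p was 0.234.

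IL1A (ENSBTAG00000010349) encodes interleukin-1α, an alarm signal released from damaged epithelium that shares its receptor with IL-1β. In the RefSeq gene table of assembly ARS-UCD2.0 the IL1A and IL1B genes lie on the same chromosome with 1 gene between them. IL1A held 1, 7 and 2 counts in NC and 3, 6 and 2 counts in mimic libraries, and the groups overlapped. The pooled ratio was 1.26 with a counting interval of 0.484 to 3.30. Without NC replicate 2 it was 2.70 (0.713 to 15.1), from 11 mimic counts and 3 NC counts. NC replicate 2 held 7 of the 10 NC counts of IL1A, and 1 of the 4 of IL1B.

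TNF (ENSBTAG00000025471), the founding member of its cytokine family and a strong activator of NF-κB, had 1 count in NC replicate 3, 1 count in mimic replicate 1 and 0 in the other 4 libraries. CCL2 (ENSBTAG00000025250), the main monocyte chemoattractant, and CXCL10 (ENSBTAG00000001725), an interferon-induced chemokine that attracts activated T cells, had 0 counts in all 6 libraries. A count of 0 allows up to 3 counts, which is 0.124 to 0.181 CPM depending on the library. Of all 28522 rows, 8953 (31.4%) were at 0 throughout, so a row without counts was common in these tables. No difference between the groups was detectable at this depth for these 3 genes, and NC replicate 2, where IL6 was highest, held 0 counts of each.

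**Figure D4:**
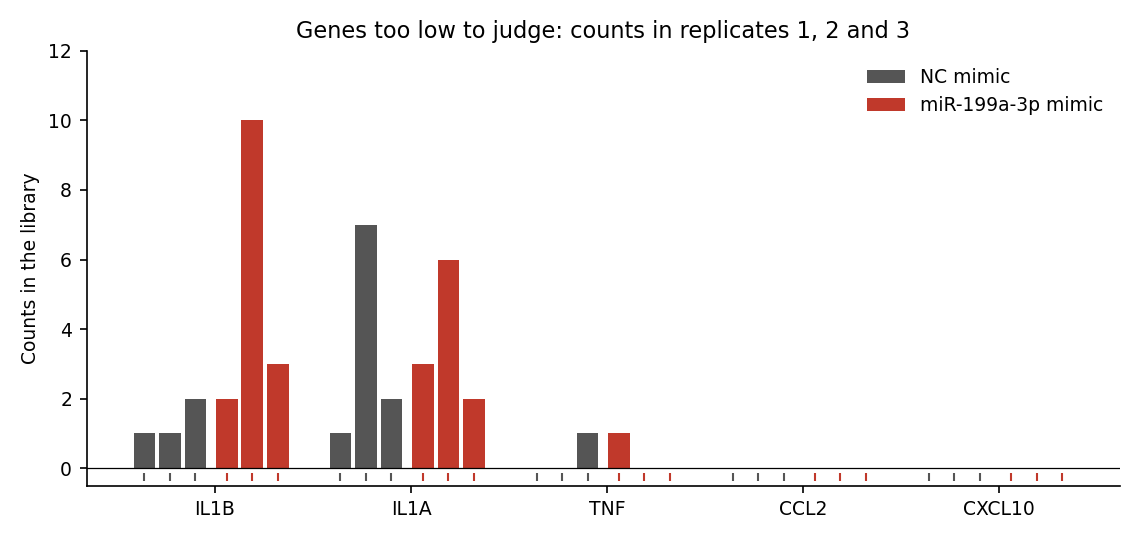
Counts in NC (grey) and miR-199a-3p mimic (red) libraries, replicates 1, 2 and 3 from left to right within each group, for the genes too low to judge; tick marks below 0 show the place of each library. No bar exceeds 10 counts, and CCL2 and CXCL10 have none.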

How the data were processed

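Each sample's deposited file gives unnormalized counts as whole numbers by gene ID. HISAT2, DESeq2 and the build UMD3.1 stand in the submitters' processing notes. Not given in the sources used here are the counter, annotation release and strandedness, so reads of overlapping or antisense genes cannot be told apart. The RefSeq table of 37063 genes gives no Ensembl IDs and so matched 0 of the IDs, although it holds all 9 symbols. Pathway genes, cell type markers and sequences were therefore not analysed here.

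Counts were tested over 13949 rows with the quasi-likelihood test of edgeR 4.0.16 in R 4.3.3 (two-sided, TMM, group as the only term, Benjamini-Hochberg adjustment over all rows). Rows passed edgeR's default filter (minimum count 10, minimum total 15). A row it removed was too low to judge. Limma 3.58.1 and DESeq2 1.42.0 served as alternatives. Fits with quality weights, robust moderation or no Cook's filter were chosen after seeing the data. Ratios of pooled counts have exact 95% intervals, which cover counting error only, as reads are not independent molecules. The procedure was tested on simulated counts in which no library was made to stand apart. That test therefore does not cover data with a library like NC replicate 2. Plots used matplotlib 3.10.9. The genes, lists and tests were chosen with earlier results of these data known. All 9 genes were to be named, and the rows most like the gene with the largest change were taken by a stated distance.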

Additional observations from a re-analysis of the deposited data

How the results depend on the processing

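Leaving out 1 library gave log2 fold changes of -2.29 to 1.12 for IL6, 0.0504 to 1.52 for CXCL8 and 1.36 to 3.94 for CCL20, the highest of each without NC replicate 2. It gave 0 to 3 of the 3 genes called and 472 to 3469 rows called in all, against 1643. The fit without NC replicate 2 was the only one of these 6 that called any of the 3 genes, CCL20 only as a gene kept through the mimic libraries, and the 472 came without mimic replicate 1. Limma-voom called 1 of the 3 genes, CCL20, at a log2 fold change of 2.56, and 1608 rows in all. With quality weights it called 2, CXCL8 at 1.27 and CCL20 at 3.16, gave 0.61 for IL6, and called 2683 rows in all. In both fits CCL20 was kept mainly through the mimic libraries. The cause of the differences between fits was not tested. DESeq2 gave IL6 no p-value under its filter on Cook's distance (adjusted p = 0.424 without that filter) and CCL20 no adjusted p. The stricter filter, a minimum count of 50, removed CCL20. The other scalings, the fit without a filter and robust moderation changed no sign and no call of IL6, CXCL8 or CCL20, DESeq2 changed no sign of theirs and no call of CXCL8, and asking for at least 10 counts in every library of 1 group left the same 5 genes too low to judge. Under a replicate block (the label's number) the log2 fold changes were -0.37, 0.72 and 1.98 for IL6, CXCL8 and CCL20, none called, and 1411 rows changed in all. Deviations of same-numbered libraries correlated at 0.0172 to 0.0938 across rows. Each mimic library correlated best with the NC library of its number, while NC replicate 3 correlated best with mimic replicate 2 (0.0334). The libraries were treated as unpaired, and these values do not settle whether they were paired. Depth limits 5 genes, which held 0 to 21 counts over all 6 libraries.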

Other observations

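The 2 rows most like CCL20, by the root mean square difference of log2(CPM + 1) centred on the mean of the 6 libraries, were ENSBTAG00000020837 at 0.0573 and ENSBTAG00000049416 at 0.0667. ENSBTAG00000020837 held 8.65, 11.8 and 8.09 CPM in NC replicates 1, 2 and 3 and 15.8, 12.6 and 15.1 CPM in mimic replicates 1, 2 and 3. ENSBTAG00000049416 held 53.5, 83.0 and 54.1 CPM in NC and 102.3, 92.8 and 96.4 CPM in mimic libraries. In both, as in CCL20, NC replicate 2 was the highest NC library and mimic replicate 2 the lowest mimic library. Both rows were picked for their likeness to CCL20 over the same libraries, so this shared order is no separate finding. The added 1 CPM damps the scarce CCL20, so these rows do not match the size of its differences. Nor do they match its full order, as mimic replicate 1 was above mimic replicate 3 in both and below it in CCL20. CCL20 was the gene compared because its log2 fold change of 1.92 was the largest in size of the 3.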
